A study of Rattus norvegicus with 16 samples.

Results

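Bone marrow RNA was compared between female Big Blue rats gavaged with N-nitrosodiethylamine (NDEA) at 10 mg/kg/day and rats gavaged at 0 mg/kg/day, given daily for 28 days in 2 ml/kg, with tissue taken 3 days after treatment ended. All rats, controls included, carried the strain's transgenic vector with the cII and lacI reporter genes; they arrived at 6 weeks of age and were acclimated for 1 week. There were 4 marrow control and 4 marrow NDEA libraries, 8 of the 16 libraries of the study, the others being liver from the same 2 treatments. The comparison took in every gene with at least 10 counts in 4 or more of the 8 marrow libraries, which was 9131 of 32623 gene records. The labels give 6 rats per dose group and 3 per cage, but do not tie a library to a rat or cage, so p-values measure the spread between these libraries.

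NDEA is a nitrosamine whose ethylating activity appears only after oxidation by cytochrome P450 enzymes, mainly CYP2E1 and CYP2A enzymes, which are abundant in hepatocytes. The adducts are removed by O6-methylguanine-DNA methyltransferase (Mgmt) and by base excision repair, and unrepaired damage activates p53 and its targets such as Cdkn1a and Mdm2. Bone marrow is a fast dividing tissue that makes red cells, granulocytes, platelets and lymphocytes inside a niche of stromal, endothelial and bone cells. Whole marrow RNA mixes all of these, so fewer cells of a type and less RNA per cell cannot be told apart.

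Markers of marrow were present in all 8 libraries. Mpo, the peroxidase of neutrophil primary granules, lay between 414 and 621 CPM, the unit used below, which is counts scaled to a common library total. Hba-a1, an alpha-globin gene, reached 111990.0 to 189870.4 CPM and Pf4, a platelet chemokine, 43.2 to 236 CPM. Some defining markers had 0 counts in all 8 libraries, among them Gata1 (erythroid), Ltf (neutrophil), Pax5 (B cell) and Tubb1 (megakaryocyte), although other markers of each of these types were counted. A count of 0 allows up to 1.39 CPM in the library with the fewest counts and 0.526 in that with the most, for counting error alone. The 8 hepatocyte markers summed to 0.176 to 4.29 CPM in control and 0.232 to 4.16 CPM in NDEA libraries, none reached the filter, and Cyp2e1 had 0 counts.

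The marrow libraries held 2162182 to 5705705 counts. Control library 1 had the fewest, and the next fewest were 4394984 in NDEA library 1. Between 11054 and 11699 genes had a count in the control libraries against 9101 to 11037 in the NDEA libraries, where library 4 had the fewest (9101) and library 3 the next fewest (10144). At an equal depth the expected numbers were 10731 to 11291 and 8927 to 10699, so the NDEA libraries stayed below the control libraries. Mitochondrially encoded transcripts took 6.41% to 13.0% of counts in control and 8.37% to 15.8% in NDEA libraries; control library 3, at 13.0%, was the only control above 8.65%. Gene number thus did not overlap between the groups and mitochondrial share did; their part in the results below was not tested except through the fits named there.

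**Figure D1:**
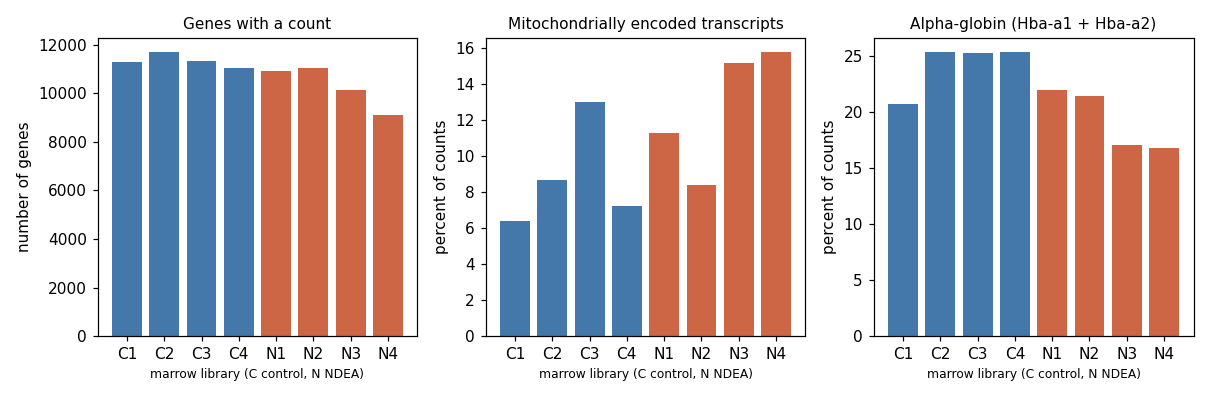
Bars give, for each of the 8 marrow libraries (C1 to C4 control, N1 to N4 NDEA), the number of genes with a count, the percent of counts from mitochondrially encoded transcripts and the percent from the alpha-globin genes Hba-a1 and Hba-a2. NDEA libraries 3 and 4 have 10144 and 9101 genes and mitochondrial shares of 15.2% and 15.8%, and control library 3 stands above the other controls in mitochondrial share at 13.0%.

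No marrow gene passed the test. Across the 9131 genes, 0 (0%) were called by limma-voom at an adjusted p under 0.05, and the smallest adjusted p was 0.246. Unadjusted p-values under 0.05 were found for 1320 genes, 542 with a higher estimate in NDEA (5.94% of all tested) and 778 with a lower one (8.52%). The estimate lay above 0 for 44.5% of genes, with a median log2 fold change of -0.09. Estimates below are log2 fold changes, NDEA minus control, and medians of lists are medians of these. Groups did not overlap for 240 genes higher with NDEA (2.63%) and for 268 lower (2.94%). The median standard error was 0.41 on the log2 scale, and 0.30 among the 4884 genes averaging 4 or more on the log2 CPM scale. Of those 4884, 2526 had a 95% interval that lay inside a 2-fold change either way; the remaining genes could hold a 2-fold change that 4 libraries a group did not resolve.

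This count changed with the fit and with the libraries in it. Without control library 3, the test called 330 genes of 8934, 115 higher (1.29%) and 215 lower (2.41%). By list, these were 1 higher and 16 lower of 31 ribosomal protein genes, 1 higher and 5 lower of 13 secondary granule genes, 6 lower of 29 nuclear-encoded respiratory chain genes, and 3 lower each of the heme and iron, primary granule and skeletal muscle genes; the other lists had 0 to 2. Leaving out any other single library left 0 genes called. With all 8 marrow libraries kept, 285 genes were called with the replicate number as a block. The labels do not say whether libraries of the same number share a rat, cage or batch. When all 16 libraries of both tissues shared a fit, 63 were called. Among the 1320 genes at an unadjusted p under 0.05, control library 3 was the control nearest to the NDEA mean for 958 (72.6%), against 40.2% of all tested genes. The fit without control library 3 was read by list after its values were seen, so its calls add no support. With NDEA libraries 3 and 4 left out, a choice made after seeing the data, 0 genes were called and 408 lay at an unadjusted p under 0.05. In that fit the median estimate was above 0 for, among others, osteoclast (0.12), stem and progenitor (0.14), mature neutrophil (0.16) and endothelial (0.17) genes, lists whose medians over all 8 libraries were below 0. With control library 3 left out as well, 43 were called (4 higher, 39 lower). With the mitochondrial share as a covariate, 337 genes lay at an unadjusted p under 0.05 and 1, Acta1, was called. The number at an unadjusted p under 0.05 was 814 without control library 2 and 853 without control library 4. Limma-trend and limma-voom with sample quality weights each called 0 genes, with 1291 and 1475 at an unadjusted p under 0.05.

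The genes higher with NDEA whose groups did not overlap and whose unadjusted p was smallest came from varied functions, and none passed the test. Gak, a kinase that uncoats clathrin vesicles, was 163, 205, 257 and 259 CPM in control and 362, 420.2, 399 and 522 CPM with NDEA. Its log2 fold change was 0.95 (SE 0.22), adjusted p 0.246 by limma-voom. Dusp6, a phosphatase that switches off ERK kinases, was 259, 533, 487 and 477 CPM in control and 834, 721, 904 and 923 CPM with NDEA, a log2 fold change of 0.98 (SE 0.24). The 4 NDEA values of Dusp6 lay close together, and control library 1 was the lowest of the 8. Dhx8, an RNA helicase of the spliceosome, read 30.2, 57.2, 61.6 and 44.2 CPM in control and 117, 83.5, 125 and 150.4 CPM with NDEA, a log2 fold change of 1.26 (SE 0.28). Ywhah, a 14-3-3 adaptor protein, read 647, 1235, 1611 and 1127 CPM in control and 1895, 1709, 3472 and 4492 CPM with NDEA. Its estimate was 1.28 (SE 0.31), and NDEA libraries 3 and 4 were far above 1 and 2. Cd72, a B cell coreceptor, was 68, 113, 157 and 97.3 CPM in control and 188, 169, 187 and 281 CPM with NDEA, a log2 fold change of 0.93 (SE 0.26), and NDEA library 4 was the highest. The other 7 of these 12 genes were Mzt2b, Yipf3, Ppip5k2, Lrrc14, Coasy (the last enzyme of coenzyme A synthesis), Tbce (a tubulin folding factor) and Fam193b. Their log2 fold changes ran from 0.89 for Ppip5k2 to 1.46 for Lrrc14.

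Among the 12 genes lower with NDEA by the same rule were 2 of striated muscle, a platelet gene and a clock gene. Acta1, skeletal muscle alpha-actin (chromosome 19, position 56674074 in the deposited table, whose genome build is not given in the sources used here), was 35.3, 42.3, 139 and 64.2 CPM in control and 10.7, 6.89, 13.7 and 10.1 CPM with NDEA. Control library 3 was the highest, and all NDEA libraries lay below all controls; the log2 fold change was -2.65 (SE 0.48), adjusted p 0.246 by limma-voom. Cd59, which shields cells from complement, was 109, 71.3, 58.4 and 50.6 CPM in control and 42.7, 23, 25.1 and 20.1 CPM with NDEA, a log2 fold change of -1.35 (SE 0.31). Tent5a, a poly(A) polymerase, was 80.2, 37.9, 35 and 33.1 CPM in control and 13.9, 20.7, 14.3 and 7.7 CPM with NDEA, with control library 1 far above the other controls. Dbp, a transcription factor driven by the circadian clock, was 36.9, 40.4, 22.7 and 46.9 CPM in control and 13.2, 19.1, 12.9 and 10.9 CPM with NDEA. Its log2 fold change was -1.37 (SE 0.36), and the labels used here give no time of day for tissue collection. Sh3bgrl3 was 72.6, 107, 95.4 and 114 CPM in control and 54.5, 64.5, 41.1 and 39.7 CPM with NDEA, a log2 fold change of -0.99 (SE 0.26). The ribosomal protein gene Rps25 was 99.9, 54.2, 20.8 and 35.2 CPM in control and 9.51, 16.5, 4.78 and 1.38 CPM with NDEA, its NDEA values running down to the smallest in library 4. Ndufb10 (a complex I subunit), Mob1a (a Hippo pathway adaptor), Ctdnep1 (a nuclear envelope phosphatase), Ubl5, Tpm2 (a muscle tropomyosin) and Pf4 completed the 12, with log2 fold changes from -1.58 for Ndufb10 to -1.18 for Pf4.

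**Figure D2:**
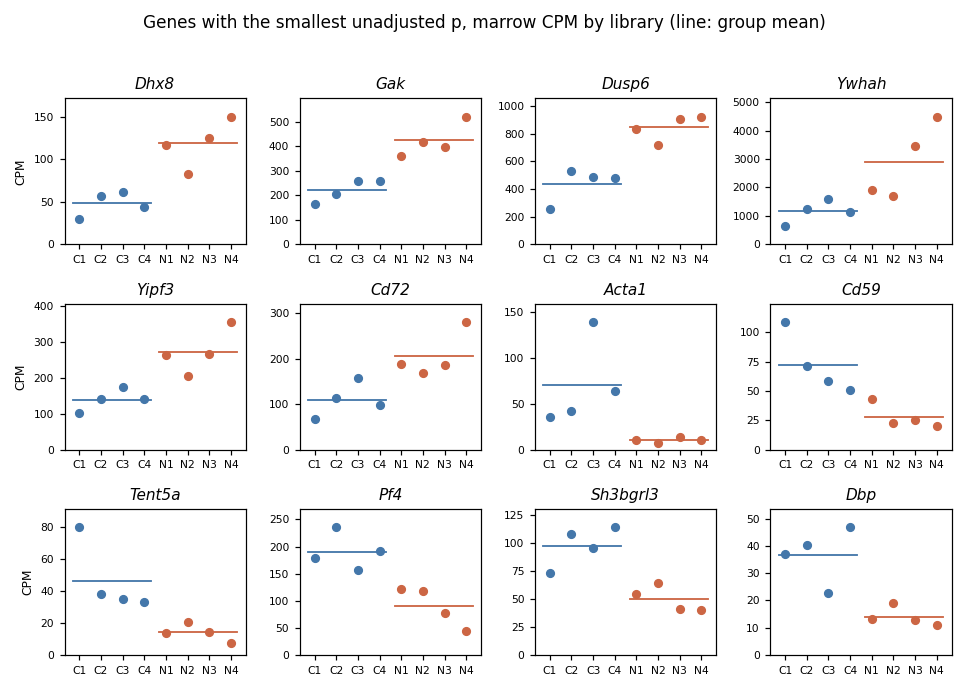
Each panel plots the CPM of 1 gene in the 4 control (C1 to C4) and 4 NDEA (N1 to N4) marrow libraries, with a line at each group mean; the y axes start at 0. All 12 genes shown have no overlap between groups, by the rule that chose them, and all have an adjusted p of 0.246.

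Red cell genes held no called member. Alpha-globin from Hba-a1 and Hba-a2 took 20.7% to 25.4% of counts in control and 16.8% to 22% in NDEA libraries. Hba-a1 read 119600.5, 175932, 189870.4 and 169704 CPM in control and 151317, 136899, 111990.0 and 114861 CPM with NDEA, a log2 fold change of -0.34 (SE 0.22), and the groups overlapped. Hba-a2 had an estimate of -0.20 (SE 0.21). These 2 genes are near-identical copies, so how reads were split between them is uncertain. Of 22 tested genes of the red cell list, 0 were called, 9 estimates lay above 0 and 13 below, and the median was -0.09, beside -0.09 over all genes. Slc4a1, the band 3 anion exchanger of the red cell membrane, was 1787, 2079.7, 2703 and 2507 CPM in control and 2311, 2165, 2437 and 2785 CPM with NDEA, an estimate of 0.11 (SE 0.21) with an interval of -0.34 to 0.55, inside a 2-fold change. Ahsp, the chaperone of free alpha-globin, was 3652, 3011, 2883 and 4096 CPM in control and 2760.1, 3194, 2142 and 2084 CPM with NDEA, a log2 fold change of -0.43 (SE 0.22). Tfrc, the transferrin receptor that brings iron into erythroblasts, had an estimate of 0.18 (SE 0.24). Klf1, the erythroid master regulator, read 415, 370.5, 224 and 379 CPM in control and 224, 295, 235 and 178 CPM with NDEA, with an estimate of -0.55 (SE 0.24), while Epor, the erythropoietin receptor, had an estimate of 0.61 (SE 0.28).

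Beta-globin records gave opposite estimates. Hbb was 4789.6, 4785, 1328 and 2886 CPM in control and 1172, 831, 1241 and 1676 CPM with NDEA, a log2 fold change of -1.36 (SE 0.34), adjusted p 0.246 by limma-voom. Control library 3 lay with the NDEA libraries and not with the other controls. A record without an established symbol, LOC103694857, 13.8 kb from Hbb on chromosome 1 in the deposited table, was 583, 623, 210.3 and 442 CPM in control and 139, 157, 171 and 196 CPM with NDEA, lower in every NDEA library (log2 fold change -1.38, SE 0.29). A further record, LOC103694855, 25.8 kb from Hbb, was 21421, 27601, 37663 and 38121 CPM in control and 32208, 38165, 41755 and 56499 CPM with NDEA, with an estimate of 0.44 (SE 0.25). The ratio of Hbb to LOC103694855 was 0.224, 0.173, 0.0353 and 0.0757 in the control and 0.0364, 0.0218, 0.0297 and 0.0297 in the NDEA libraries. Hbb against LOC103694857, by contrast, kept ratios of 6.32 to 8.21 in control and 5.29 to 8.54 in NDEA libraries. These 3 records were examined after their values were seen, and reads shared between globin copies may have been split by the counting. In the heme and iron list, 19 genes were tested, 0 were called and the median was -0.07. Alas2, the rate-limiting enzyme of erythroid heme synthesis, read 648, 684, 458 and 806 CPM in control and 329.5, 459, 332 and 365 CPM with NDEA (log2 fold change -0.79, SE 0.23). Alad, the enzyme of the next step of heme synthesis, had an estimate of the other sign, 0.56 (SE 0.24). Hmox1 (heme oxygenase) and Glrx5 (iron-sulfur cluster assembly) had estimates of -0.06 (SE 0.26) and -0.07 (SE 0.22).

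Genes of neutrophil development showed unlike estimates within a single maturation stage. In the primary granule list, formed at the promyelocyte stage, 11 of 12 members were tested, 0 were called, and 3 estimates lay above 0 and 8 below (median -0.33). Mpo was 550.2, 568, 621 and 543 CPM in control and 613, 559, 414 and 423 CPM with NDEA, an estimate of -0.20 (SE 0.21) with an interval of -0.65 to 0.24. Srgn, the proteoglycan that packs granules, had an estimate of -0.25 (SE 0.21). Elane, neutrophil elastase, was 299, 307, 86.4 and 227 CPM in control and 118, 191, 53.2 and 61.8 CPM with NDEA, a log2 fold change of -1.14 (SE 0.40). Prtn3, proteinase 3, whose position on chromosome 7 in the deposited table lies 5.19 kb from that of Elane, was 212, 381, 481 and 389 CPM in control and 512, 457, 336 and 467 CPM with NDEA, a log2 fold change of 0.31 (SE 0.25). The ratio of Elane to Prtn3 was 1.41, 0.804, 0.18 and 0.585 in the control and 0.23, 0.418, 0.158 and 0.132 in the NDEA libraries, so control library 3 lay within the NDEA range. Ctsg, cathepsin G, was 90.2, 154, 44.9 and 132 CPM in control and 61.7, 92.2, 17.7 and 21.5 CPM with NDEA (log2 fold change -1.31, SE 0.46), again with control library 3 lowest among controls. Elane, Ctsg and the other genes named below with control library 3 were chosen after their values were seen, apart from those that were the 3 most abundant of a list.

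The list named secondary granule also holds the defensins Np4 and Defa5 and the lysozyme Lyz2, so it does not stand for 1 granule class or stage. It had 13 of 17 matched members tested and 0 called, with a median of -0.15. Without control library 3, 6 of the 13 were called, Mmp8 higher and 5 lower, among them Fcnb, Lyz2, Np4 and Defa5. In that fit 1.29% of all genes were called higher and 2.41% lower, while leaving out any other single library left 0 genes called. Control library 3 was singled out after its values were seen, so those calls add no support. The most abundant member, Ngp, was 5089, 3992, 5006 and 4751 CPM in control and 5419, 4705, 3408 and 3863 CPM with NDEA, an estimate of -0.13 (SE 0.22), and Camp, the cathelicidin precursor, had an estimate of -0.15 (SE 0.22). Np4, a neutrophil defensin, was 3791, 2984, 2628 and 3579 CPM in control and 2169.5, 2740.5, 1264 and 1117 CPM with NDEA, a log2 fold change of -0.92 (SE 0.27), adjusted p 0.246 by limma-voom. Fcnb, ficolin B, read 1136, 958, 373 and 934 CPM in control and 386, 552, 219.8 and 115 CPM with NDEA, a log2 fold change of -1.53 (SE 0.40). Lyz2, lysozyme, was 3114, 2968, 1151 and 3412 CPM in control and 1136, 2182, 803 and 659.6 CPM with NDEA (log2 fold change -1.20, SE 0.36), and Defa5, a further defensin, had an estimate of -1.25 (SE 0.34). Against these, Mmp8, neutrophil collagenase, was 492, 909, 1597 and 1030.0 CPM in control and 1858, 1273, 2177 and 2268 CPM with NDEA, a log2 fold change of 1.00 (SE 0.30). In Fcnb, Lyz2 and Mmp8 alike, control library 3 was the control nearest to the NDEA libraries. The ratio of Fcnb to Mmp8 was 2.31, 1.05, 0.233 and 0.907 in control and 0.208, 0.434, 0.101 and 0.0508 in NDEA libraries. Defensin genes are near-identical copies, so their separate counts are uncertain.

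Mature neutrophil genes had a median of -0.04 over 15 of 18 members tested, with 0 called. S100a8 and S100a9 encode the subunits of calprotectin, the main cytosolic protein of neutrophils. S100a8 was 8390.2, 11519.6, 17102 and 11837 CPM in control and 20976, 11316, 11433 and 12420.1 CPM with NDEA (log2 fold change 0.20, SE 0.26), with NDEA library 1 far above the other NDEA libraries and control library 3 the next highest of the 8. S100a9 was 4010.3, 3752, 4371 and 5366 CPM in control and 4481, 4032, 2327 and 2094 CPM with NDEA (log2 fold change -0.50, SE 0.26). The S100a9 to S100a8 ratio ran from 0.256 to 0.478 in control and from 0.169 to 0.356 in NDEA libraries, so the groups overlapped. Cxcr4, the receptor that holds cells in marrow, was 382, 359, 437 and 426 CPM in control and 484, 466, 576 and 834 CPM with NDEA, higher in every NDEA library, with an estimate of 0.52 (SE 0.23) and an adjusted p of 0.307 by limma-voom. Slpi, a secreted protease inhibitor, was 15.5, 22.6, 11.3 and 15.2 CPM in control and 9.04, 1.85, 3.53 and 1.58 CPM with NDEA, lower in every NDEA library (log2 fold change -2.43, SE 0.69).

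**Figure D3:**
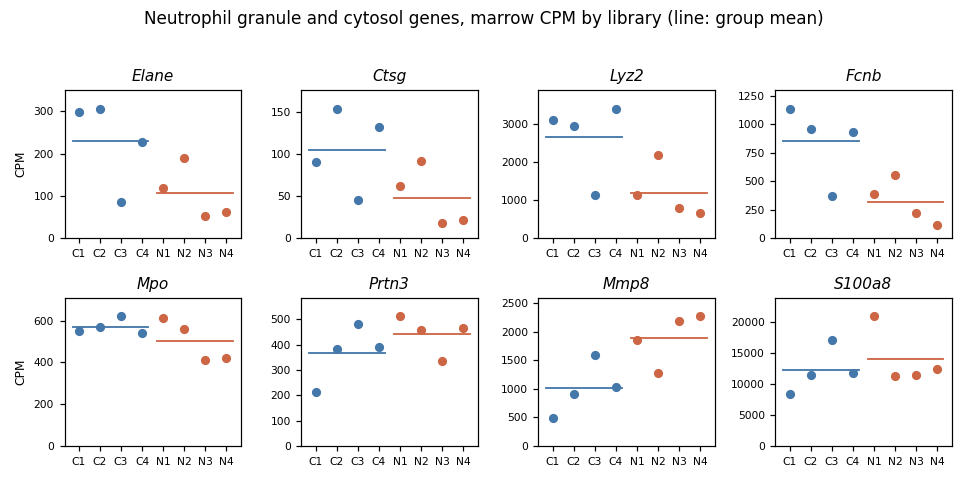
Each panel plots the CPM of 1 neutrophil gene in the 4 control (C1 to C4) and 4 NDEA (N1 to N4) marrow libraries, with a line at each group mean; the y axes start at 0. Elane, Ctsg, Lyz2 and Fcnb are low in control library 3 as well as in most NDEA libraries, Mmp8 runs the other way, and Mpo, Prtn3 and S100a8 overlap between groups.

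Macrophage and dendritic cell genes also split. C1qa, a complement subunit made by tissue macrophages, was 141, 235, 242 and 218 CPM in control and 269, 258, 290.2 and 372 CPM with NDEA, higher in every NDEA library, with an estimate of 0.51 (SE 0.23) and adjusted p 0.323 by limma-voom. Its partner C1qc was 195, 203, 163 and 205 CPM in control and 224, 218, 200.3 and 196 CPM with NDEA, an estimate of 0.13 (SE 0.21), and the groups overlapped. Cd163, the receptor for hemoglobin-haptoglobin on erythroblastic island macrophages, had an estimate of 0.11 (SE 0.23). The list had 16 of 18 matched members tested, 0 called and a median of -0.14; its lowest estimate was that of Csf1r, the receptor for macrophage colony-stimulating factor, at -1.58 (SE 0.47). Among antigen presentation genes, Cd74, the invariant chain of MHC class II, was 379, 503, 304 and 389 CPM in control and 324, 445, 221 and 160.1 CPM with NDEA (log2 fold change -0.54, SE 0.28). For the class II chains, RT1-Bb had an estimate of 0.26 (SE 0.23), RT1-Db1 had an estimate of -0.35 (SE 0.25) and RT1-Da had an estimate of -1.48 (SE 0.51).

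For eosinophils, basophils and mast cells, 16 of 18 matched members were tested, 0 were called, and 13 estimates lay below 0. Prg2, eosinophil major basic protein, was 3959.9, 4177, 3733 and 4229 CPM in control and 4397, 5739, 2848 and 3129 CPM with NDEA, an estimate of -0.05 (SE 0.24). Epx, eosinophil peroxidase, had an estimate of -0.19 (SE 0.31) and Prg3 had an estimate of -0.62 (SE 0.28). Cpa3, carboxypeptidase A of mast cells and basophils, was 114, 90.9, 13.3 and 46.3 CPM in control and 12.1, 22.5, 16.8 and 10.1 CPM with NDEA, an estimate of -1.69 (SE 0.57) in which control library 3 again lay among the NDEA values. Prg2, the most abundant of the list, thus overlapped widely between groups.

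The median over megakaryocyte genes was -0.53 on the log2 scale, with 14 of 20 members tested, 4 estimates above 0, 10 below and 0 called. Pf4 (chromosome 14, position 18848549 in the deposited table) was 178, 236, 156 and 192 CPM in control and 122, 117, 77.3 and 43.2 CPM with NDEA. All NDEA libraries lay below all controls, NDEA library 4 was the lowest, and the log2 fold change was -1.18 (SE 0.29) with an adjusted p of 0.246 by limma-voom. Clec1b, the podoplanin receptor of platelets, was 138, 50.6, 39.8 and 46.7 CPM in control and 37.8, 32.8, 33.2 and 12.4 CPM with NDEA, also without overlap (log2 fold change -1.07, SE 0.39). Other abundant members gave no such gap. Treml1, a receptor of platelet alpha granules, was 358, 935, 1194 and 867 CPM in control and 914, 1023, 1219.6 and 1076 CPM with NDEA (log2 fold change 0.45, SE 0.29), and control library 1 alone was low. Cavin2 and Nrgn had estimates of 0.03 (SE 0.22) and -0.09 (SE 0.24). Summed over the 20 members, the list gave 1940 to 2692 CPM in control and 2012 to 2519 CPM in NDEA libraries.

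B cell progenitor genes included higher estimates carried by NDEA libraries 3 and 4. Blnk, the adaptor of pre-B cell receptor signalling, was 209.8, 235, 286 and 362 CPM in control and 333, 346, 647 and 986 CPM with NDEA, a log2 fold change of 0.96 (SE 0.31), adjusted p 0.247 by limma-voom. NDEA libraries 1 and 2 lay within the control range. Ebf1, a B lineage transcription factor, was 213, 157, 177 and 199 CPM in control and 163, 233, 189 and 280.4 CPM with NDEA (log2 fold change 0.20, SE 0.23), and Cd24 had an estimate of 0.43 (SE 0.32). Over the 12 of 15 matched members tested, the median was 0.01, with 6 estimates above 0, 6 below and 0 called. In the mature B and plasma cell list, 11 of 16 matched members were tested and 0 called; Spib and Irf4, transcription factors of B and plasma cells, had estimates of -0.41 (SE 0.39) and 0.60 (SE 0.40). T and NK cell genes were sparse, at 115 to 281 CPM summed over 21 members in control and 106 to 151 CPM in NDEA libraries. Nkg7, a cytotoxic granule protein, was 106, 126, 45.2 and 88.2 CPM in control and 33.6, 60, 14.1 and 26.9 CPM with NDEA, an estimate of -1.49 (SE 0.39), with control library 3 low. Il2rb, an interleukin receptor chain, had an estimate of -0.59 (SE 0.51) and Tbx21, the T-bet factor, had an estimate of 0.65 (SE 0.39). Stem and progenitor genes were at low levels too, with 10 of 16 matched members tested and 0 called. Runx1 had an estimate of 0.47 (SE 0.27), Lmo2 -0.34 (SE 0.43) and Spi1 -0.24 (SE 0.27), all transcription factors of blood formation. The list's median of -0.27 became 0.19 without NDEA library 4.

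Among niche and bone genes, Cxcl12, the stromal chemokine that retains stem cells, was 559, 742, 397 and 443 CPM in control and 362, 394, 439 and 334 CPM with NDEA, an estimate of -0.45 (SE 0.23). The stromal list had 13 of 16 members tested, 0 called and a median of -0.21. Vcam1, an adhesion molecule, had an estimate of -0.14 (SE 0.24) and Lum, a matrix proteoglycan, -0.21 (SE 0.35). Osteoblast genes had a median of -0.68 over 10 of 16 tested, with 0 called. Col1a1, a chain of type I collagen, was 5381, 4013, 2241 and 2811 CPM in control and 1671, 2187, 3052 and 1175 CPM with NDEA, an estimate of -0.85 (SE 0.30), and Bglap, osteocalcin, was 2055, 614, 559 and 459.8 CPM in control and 411, 362, 687 and 367 CPM with NDEA (log2 fold change -0.77, SE 0.36). Control library 1 was the highest in both Col1a1 and Bglap. Sparc, a collagen-binding matrix protein, had an estimate of -0.63 (SE 0.29), while Alpl, the bone alkaline phosphatase, had an estimate of 0.31 (SE 0.24). Ctsk, the collagenase of osteoclasts, was 72.6, 33.7, 8.21 and 33.1 CPM in control and 6.03, 31.9, 0 and 13.8 CPM with NDEA, an estimate of -2.50 (SE 1.15), in a list with 6 of 12 members tested and 0 called (median -0.31). The tested members of this osteoclast list include Car2, also in the red cell list, and Mmp9, also in the mature neutrophil list. Its median is therefore not one of osteoclast genes alone. For endothelium (9 of 12 matched members tested, 0 called, median -0.26), Cdh5, the adhesion protein of endothelial junctions, was 14.3, 12.7, 25.8 and 12.3 CPM in control and 25.5, 41.5, 45.9 and 29.6 CPM with NDEA (log2 fold change 1.19, SE 0.36), while Tie1 and Kdr had estimates of -0.40 (SE 0.27) and 0.17 (SE 0.33). Adipocyte genes (11 of 12 tested, 0 called, median 0.40) differed in sign. Adipoq, adiponectin, was 133, 272, 323 and 191 CPM in control and 283, 294, 574 and 479 CPM with NDEA (log2 fold change 0.82, SE 0.29), Fabp4, a fatty acid carrier, had an estimate of 0.40 (SE 0.22), and Cfd, adipsin, was 1152, 704, 329.6 and 534 CPM in control and 326, 355, 347 and 316 CPM with NDEA (log2 fold change -0.87, SE 0.29). Of 9 cartilage genes, Sox9 alone was tested. Sox9, a chondrocyte transcription factor, was 3.78, 0, 17.6 and 7.87 CPM in control and 3.01, 5.21, 5.19 and 5.53 CPM with NDEA. Its log2 fold change of 1.22 (SE 1.21) is above 0 although the mean CPM was higher in control, at 7.32 against 4.74, and control library 2 had 0 counts.

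Skeletal muscle genes, markers of a tissue that lies next to bone, had the lowest list median, -2.65, with 0 called. Their sum over all 14 matched members was 247 to 711 CPM in control and 92.5 to 115 CPM in NDEA libraries, without overlap. Of the 14, 11 were tested; a member could pass the filter through the control libraries alone, and 0 of the 11 were above 0. Tnnc2, fast troponin C, was 18.5, 17.5, 43.2 and 19.7 CPM in control and 1.62, 1.68, 2.91 and 2.96 CPM with NDEA (log2 fold change -3.32, SE 0.82), and Tnni2, fast troponin I, was 8.39, 13.2, 20.8 and 24.3 CPM in control and 1.62, 0.672, 0 and 0 CPM with NDEA (log2 fold change -5.62, SE 1.5). Tnnt3, fast troponin T, was 23.5, 41.5, 125 and 27.2 CPM in control and 21.3, 26, 24.1 and 37.3 CPM with NDEA, an estimate of -0.71 (SE 0.42) in which the groups overlapped. Acta1 and Tpm2 of this list were 2 of the 12 lower genes named above. How much the amount of muscle differed between samples, and its part in those genes, was not tested.

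p53 targets showed no called member in marrow. Cdkn1a, the p21 cell cycle inhibitor, was 31.5, 14.1, 7.24 and 2.68 CPM in control and 8.58, 23.8, 1.87 and 8.88 CPM with NDEA. Its estimate was 0.08 (SE 0.74) with an interval of -1.47 to 1.62, which includes a 2-fold change either way. Mdm2, the ligase that degrades p53, was 36.9, 24.9, 18.8 and 17.3 CPM in control and 16.7, 14.4, 29.7 and 14.2 CPM with NDEA, an estimate of -0.33 (SE 0.36). Ccng1, cyclin G1, was 239.6, 99.3, 73.9 and 116 CPM in control and 81.9, 98.9, 82.5 and 33.2 CPM with NDEA, an estimate of -0.76 (SE 0.35) in which control library 1 alone was high. Btg2, an antiproliferative factor, and Sesn2, a stress sensor, had estimates of 0.01 (SE 0.24) and 0.27 (SE 0.25). Of 27 matched members, 20 were tested, 13 estimates lay above 0 and 7 below, and the median was 0.06.

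Repair genes for alkylated bases gave a median of -0.02, with 17 of 20 tested and 0 called. Mgmt was 54.1, 75.2, 83.3 and 73 CPM in control and 96, 90.9, 145 and 55.9 CPM with NDEA, an estimate of 0.35 (SE 0.28) with an interval of -0.24 to 0.94, and the groups overlapped. Lig1, the replicative DNA ligase, was 513, 444, 760.3 and 452 CPM in control and 778, 577, 729.7 and 533 CPM with NDEA (log2 fold change 0.29, SE 0.23). Parp1, a sensor of strand breaks, and Fen1, a flap nuclease, had estimates of 0.07 (SE 0.25) and -0.04 (SE 0.25). For mismatch and break repair, 23 of 27 matched members were tested and 0 called (median 0.03). Mdc1, a scaffold at double-strand breaks, was 30.6, 73.6, 141 and 71.2 CPM in control and 135, 95.6, 163 and 135 CPM with NDEA (log2 fold change 0.83, SE 0.33), H2afx, the histone marked at breaks, had an estimate of 0.13 (SE 0.24) and Xrcc6, the Ku70 end-binding protein, 0.21 (SE 0.24). In the apoptosis list, 11 of 16 matched members were tested and 0 called; Bcl2l1, Bcl2a1 and Bak1, of the BCL2 family, had estimates of 0.53 (SE 0.30), -0.12 (SE 0.28) and 0.25 (SE 0.35).

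Proliferation genes held no called member. In the replication list, 23 of 25 members were tested and 0 called, with a median of 0.01. Cdt1, which licenses replication origins, was 175, 236, 433 and 225 CPM in control and 476, 329.5, 620.4 and 682 CPM with NDEA (log2 fold change 1.00, SE 0.28); Mcm6, a helicase subunit, had an estimate of 0.41 (SE 0.26) and Dut, which removes dUTP, 0.24 (SE 0.20). The mitosis list had all 21 matched members tested, 0 called and a median of -0.18. Mki67, the Ki-67 antigen, was 202, 145, 136 and 142 CPM in control and 133, 124, 131 and 112 CPM with NDEA, just below the controls in every NDEA library, with an estimate of -0.30 (SE 0.22) and an interval of -0.76 to 0.16. Top2a (topoisomerase II), Ube2c (a ubiquitin enzyme of mitotic exit) and Cenpf (a kinetochore protein) had estimates of -0.37 (SE 0.22), -0.14 (SE 0.21) and 0.27 (SE 0.21).

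The same p53, repair and cell cycle genes were set beside liver, where 644 of 9757 genes (6.6%) were called. Whether the effect of NDEA was unequal in the 2 tissues was tested by a treatment-by-tissue term over 11245 genes. It was called with the liver effect above the marrow effect for 235 genes (2.09%) and below it for 24 (0.213%), and its median over all genes was 0.32. For Cdkn1a, liver read 16.6, 47.8, 9.73 and 19.9 CPM in control and 331, 377, 262 and 336 CPM with NDEA, and its liver log2 fold change of 4.02 exceeded that of marrow, in the fit of both tissues, by 4.05 (SE 0.90, adjusted p 0.0164 by limma-voom). Mdm2 rose in liver by 1.78, a difference from marrow of 2.15 (adjusted p 0.0112, limma-voom). The corresponding differences were 2.94 for Ccng1, 2.23 for Btg2, 2.28 for Mgmt and 1.63 for Lig1, all called. Over lists, the difference was called with liver above marrow for 6 of 25 tested p53 targets, 2 of 19 alkyl repair genes, 2 of 24 mismatch and break repair genes, 0 of 14 apoptosis genes, 5 of 23 replication genes and 16 of 21 mitosis genes. It was called for 0 of 11 genes of NDEA activation and aldehydes and for 5 of 15 xenobiotic and NRF2 targets. Mki67 differed by 3.49 and Top2a by 4.72; marrow controls already held 136 to 202 CPM of Mki67. Leaving out liver control library 4 brought the number of called differences to 121, leaving out liver control library 3 brought it to 169, and leaving out marrow control library 3 brought it to 547. Whether libraries of both tissues came from the same rats is not given in the labels.

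**Figure D4:**
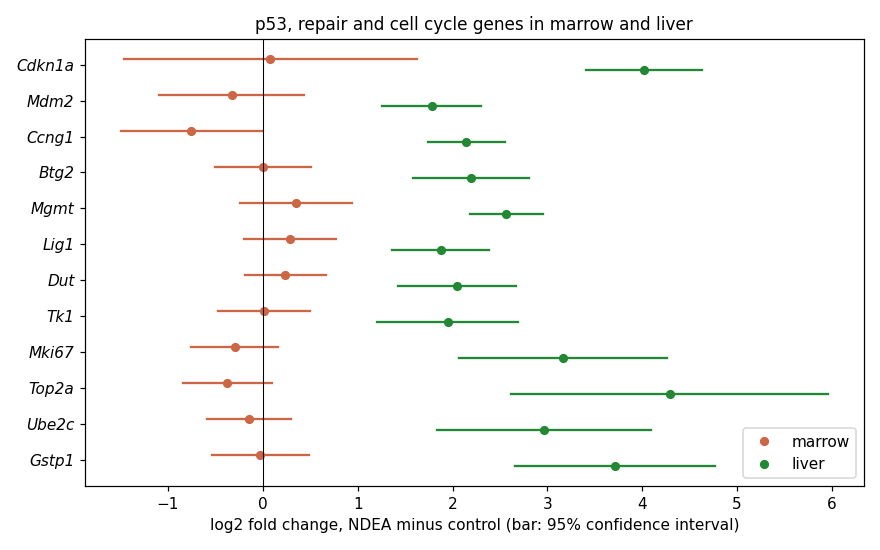
Points are log2 fold changes (NDEA minus control) of 12 genes in marrow and in liver, each fitted within its tissue, and bars are 95% confidence intervals. All 12 marrow intervals lie below the liver estimates; Cdkn1a has the widest marrow interval, -1.47 to 1.62.

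Genes that handle NDEA and its aldehyde products held no called member in marrow (7 of 11 matched members tested, median -1.04). Cyp2e1 and Cyp2a3, enzymes that activate nitrosamines, had 0 counts in the 8 libraries. Por, the reductase that serves all microsomal P450 enzymes, was 83.5, 129, 129.7 and 115 CPM in control and 115, 136, 163 and 237 CPM with NDEA, an estimate of 0.46 (SE 0.26). Aldh2, the mitochondrial acetaldehyde dehydrogenase, was 145, 126, 58.7 and 92.5 CPM in control and 51.7, 64.3, 57.3 and 27.2 CPM with NDEA, an estimate of -1.04 (SE 0.32), with control library 3 among the NDEA values. Cyb5a, the cytochrome b5 that feeds electrons to P450, was 109.5, 79.6, 49.3 and 62.8 CPM in control and 34.1, 49.2, 31.2 and 47.6 CPM with NDEA, lower in every NDEA library, with an estimate of -0.81 (SE 0.29) and an adjusted p of 0.253 by limma-voom. Of 13 tested xenobiotic and NRF2 target genes 0 were called, with a median of -0.13. Gstp1, a glutathione transferase, was 91.5, 142, 173 and 119 CPM in control and 147, 139, 101 and 128 CPM with NDEA, an estimate of -0.02 (SE 0.24) with an interval of -0.53 to 0.48, whereas liver differed from marrow by 3.79 (adjusted p 0.00246, limma-voom). Gclm and Prdx1 had estimates of 0.18 (SE 0.23) and 0.02 (SE 0.23) in marrow.

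Ribosomal protein genes had a median of -0.85, the lowest of the gene programmes other than NDEA activation, with 32 of 37 matched members tested, 6 estimates above 0, 26 below and 0 called. Rps27 and Rpsa, abundant members, pointed the other way. Rps27 was 3055, 2515, 2816 and 2547 CPM in control and 2504, 3154, 3918 and 3985 CPM with NDEA (log2 fold change 0.29, SE 0.22), and Rpsa, a small-subunit protein also known as a laminin receptor, was 1206, 1899, 3268 and 2082 CPM in control and 3374, 2548, 3828 and 4149 CPM with NDEA (log2 fold change 0.79, SE 0.27). Rpl5, which binds MDM2 under ribosomal stress, was 535, 278, 65.7 and 239 CPM in control and 82.6, 127, 69.4 and 43.6 CPM with NDEA, an estimate of -1.52 (SE 0.46). For Rpl5, control library 3 lay inside the NDEA range and control library 1 was the highest. In total, 21 of the 32 had an unadjusted p under 0.05 on the lower side and 1 on the higher side, beside 8.52% and 5.94% of all tested genes. Without NDEA libraries 3 and 4 the lower side held 2 (2.35% of all genes in that fit) and the median was -0.37. Without control library 3, a library singled out after its values were seen, 16 of 31 were called lower, beside 2.41% of all genes in that fit. Ribosomal protein genes have many processed pseudogenes, so their counts are uncertain. Nuclear-encoded respiratory chain genes had a median of -0.33 over 29 tested, with 7 estimates above 0, 22 below and 0 called. An unadjusted p under 0.05 was found for 11 on the lower side and 1 on the higher side. In the same fit without control library 3, 6 were called lower. The most abundant members, Atp5f1b, Cox6a1 and Cox7c, had estimates of 0.30 (SE 0.21), -0.02 (SE 0.21) and -0.01 (SE 0.21). All 12 tested mitochondrially encoded genes had estimates above 0, with a median of 0.51 and 0 called; the median was 0.12 without NDEA libraries 3 and 4. Mt-co2, a cytochrome oxidase subunit, was 8848, 15632, 27832 and 13621 CPM in control and 22839.6, 17200.4, 28895 and 32172 CPM with NDEA (log2 fold change 0.70, SE 0.30), and Mt-atp6 and Mt-cyb had estimates of 0.58 (SE 0.32) and 0.59 (SE 0.28).

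Other programmes held no called gene. Among interferon and MHC class I genes (19 tested, median -0.06), B2m, the class I light chain, had an estimate of -0.06 (SE 0.21), Rsad2, viperin, 0.19 (SE 0.24), and RT1-A1, a class I heavy chain, was 167, 285, 584 and 271 CPM in control and 518, 322, 559 and 828 CPM with NDEA (log2 fold change 0.83, SE 0.33). Class I genes are near-identical copies whose counts are uncertain. Nfkbia, the inhibitor of NF-kappaB, Zfp36 and Il1rn had estimates of 0.14 (SE 0.23), -0.02 (SE 0.27) and -0.46 (SE 0.35), in a list of 9 tested genes with a median of -0.02. Among immediate early and heat shock genes (12 tested, median -0.23), Junb, an AP-1 subunit, was 54.1, 50.6, 90.1 and 55.8 CPM in control and 129.6, 96.7, 123 and 76 CPM with NDEA (log2 fold change 0.77, SE 0.27), Jund had an estimate of -0.10 (SE 0.21) and Hsp90ab1 -0.11 (SE 0.22). Atf4, the factor of the integrated stress response, was 802, 1039, 1551 and 1180.4 CPM in control and 1469, 1367, 2418 and 3001 CPM with NDEA, an estimate of 0.81 (SE 0.27) in which NDEA libraries 3 and 4 were the highest. In the same secretory stress list of 16 (median -0.08), Hspa5, the BiP chaperone, had an estimate of -0.10 (SE 0.22) and Calr -0.56 (SE 0.25). Glycolysis genes had a median of -0.49 over 14 tested, although the abundant Aldoa, Pgk1 and Gpi had estimates of 0.22 (SE 0.30), 0.15 (SE 0.21) and -0.14 (SE 0.23). Sterol synthesis genes had a median of -0.44 over 15 tested, with Srebf2, a transcription factor of that pathway, at 0.55 (SE 0.26).

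**Figure D5:**
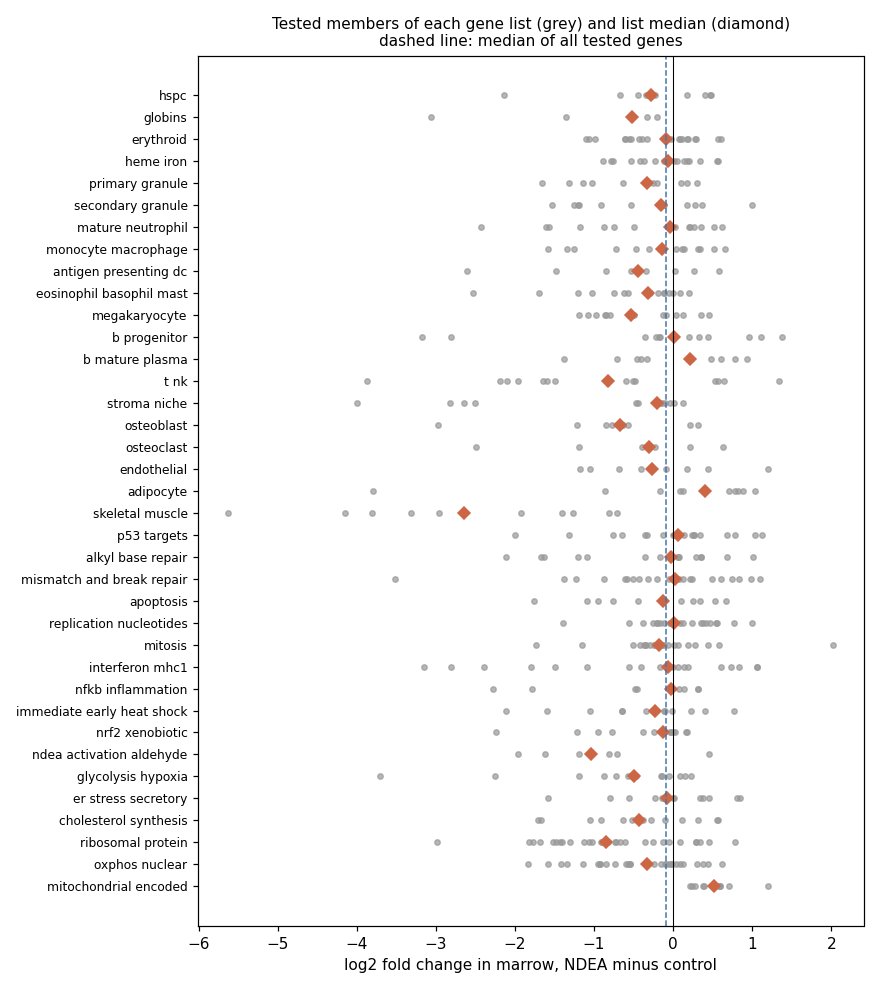
Grey points are log2 fold changes (NDEA minus control) of the tested members of each gene list with at least 5 tested, diamonds are list medians and the dashed line is the median of all 9131 tested genes, -0.09. Skeletal muscle (-2.65) is the lowest and mitochondrially encoded genes (0.51) the highest.

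The largest variation between marrow libraries lay within the NDEA group. On the 500 most variable genes, the first component held 52.3% of the variance and placed NDEA library 4 at a score of 96.3, against -29.5 to -10.2 for the controls and -13.2 to 15.2 for the other NDEA libraries. The second, with 18.6%, placed NDEA library 3 at -59.6. The genes at the lower end of the first component were Denr (a translation reinitiation factor), Spcs1 (a signal peptidase subunit), Selenos, Rnf5, Mgst2 and Eif6 (which keeps ribosomal subunits apart). Spcs1 was 94.4, 41.5, 13.5 and 49.9 CPM in control and 6.26, 19.3, 11.4 and 0 CPM with NDEA, and Eif6 was 23.1, 33.2, 20.5 and 27.7 CPM in control and 35.5, 25.7, 10.4 and 0 CPM with NDEA. All 6 of these genes had 0 counts in NDEA library 4, where 835 of the 9131 tested genes did, against 22 to 100 in the controls. At the upper end lay Itgav, Sptbn4, Actrt3, Tmem161b, Klrd1 and Cck, all at low levels; Itgav, an integrin chain, was 0, 2.29, 6.52 and 0 CPM in control and 4.17, 3.86, 10.6 and 24.3 CPM with NDEA. Correlations of log2 CPM between libraries ran from 0.814 to 0.896 among controls, from 0.760 to 0.875 among NDEA libraries and from 0.693 to 0.888 between groups, as a description of libraries that share all genes.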

How the data were processed

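QuantSeq 3' libraries, which read transcript ends, were made from total RNA of marrow and liver, per the labels' protocols. Per the submitters' processing notes the authors used STAR and DESeq2; the sources used here give no versions, build or counting tool. The deposited table holds whole counts per gene, but 12 records were broken over lines, and 15579 of 32635 lines were quoted. After rejoining, all 32623 records held whole counts. The 16 count columns used were matched by library name to the 16 libraries of the study. The count models planned as alternatives were not run, a choice made because of the broken lines. The rejoined counts themselves did not prevent those models, and limma-voom was the main test.

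Marrow was fitted alone, with genes at 10 counts or more in 4 libraries, TMM scaling (trims 0.3 and 0.05), a prior of 0.5 counts and two-sided Benjamini-Hochberg adjustment over all tested genes, at 0.05 (R 4.3.3, limma 3.58.1). Fold changes are on the log2 CPM scale with that prior, which shrinks changes of low genes. A library at 0 counts can instead enlarge them. Eif6, at 0 in NDEA library 4, had an estimate of -2.27 beside mean CPM of 26.1 in control and 17.9 with NDEA. Members and the 39 gene lists (693 of 728 entries matched by symbol, with RefSeq names from assembly GRCr8) were chosen with earlier results of these data known. Named genes were the 12 higher and 12 lower non-overlapping genes of smallest unadjusted p (average log2 CPM of at least 4, established symbol), the 3 most abundant tested members of each list, Mpo, Hba-a1, Pf4, Cdkn1a, Mdm2, Ccng1, Mgmt and Mki67, and 6 genes at each end of the first component of the 500 most variable genes; other names were added after values were seen, and some genes of this rule are not reported here. On simulated counts with 200 changed genes, over 5 draws, the marrow comparison (9116 genes tested on average) recovered 24% of 2-fold and 72% of 4-fold changes, and the tissue difference (11084 genes) 8.6% and 44%. Genes were drawn independently there, so no simulated library stood apart across many genes as NDEA library 4 did. For the tissue difference, each gene was drawn at the same baseline in liver and marrow, unlike in the real tissues. Recovery in the real libraries was therefore not measured. Alternatives covered scaling, filters, limma-trend, quality weights, a replicate block, mitochondrial share, all 16 libraries and leaving out libraries.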

Additional observations from a re-analysis of the deposited data

Results flagged for a closer look

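Among the 159 named genes, 318 groups of 4 marrow libraries were examined for a library far from the other 3, by the gap to its nearest neighbour over the range of the group. This found 20 groups; chance alone gives about 1 in 20. Some genes given with values above were not among the 159 and were not examined, among them Klf1, Epor, Alas2, Alad, Csf1r, Clec1b and Rpl5. In NDEA library 1 this held for S100a8 at 20976 CPM (highest, the next 12420.1) and Sox9 at 3.01 CPM (lowest, the next 5.19). In NDEA library 2 this held for Spib at 93.4 CPM (highest, the next 41.3). In NDEA library 3 this held for Bglap at 687 CPM (highest, the next 411) and Mdm2 at 29.7 CPM (highest, the next 16.7). In NDEA library 4 this held for Fam193b at 63.2 CPM (highest, the next 34.5), Cd72 at 281 CPM (highest, the next 188) and Mob1a at 6.32 CPM (lowest, the next 19). In control library 1 this held for Tent5a at 80.2 CPM (highest, the next 37.9), Cd163 at 351 CPM (highest, the next 248), Bglap at 2055 CPM (highest, the next 614), Fen1 at 122 CPM (highest, the next 81.3), Hsp90ab1 at 5381 CPM (highest, the next 3275), Gclm at 121 CPM (lowest, the next 163) and Mki67 at 202 CPM (highest, the next 145). In control library 2 this held for Actrt3 at 3.88 CPM (highest, the next 0.179). In control library 3 this held for Cdh5 at 25.8 CPM (highest, the next 14.3), B2m at 4991 CPM (highest, the next 4207), Junb at 90.1 CPM (highest, the next 55.8) and Tnnc2 at 43.2 CPM (highest, the next 19.7). The alpha-globin share of counts was also apart in control library 1, at 20.7% against the next value of 25.3%. None of these values was left out of the report.

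The NDEA effect differed between tissues for 12 named genes of the damage, repair, cell cycle and xenobiotic lists, by the treatment-by-tissue term (limma-voom, adjusted p under 0.05). In each the liver effect was above the marrow effect. The differences in log2 fold change were 2.94 for Ccng1, 2.23 for Btg2, 1.63 for Lig1, 1.85 for Dut, 3.17 for Ube2c, 4.72 for Top2a, 5.42 for Cenpf, 3.79 for Gstp1, 4.05 for Cdkn1a, 2.15 for Mdm2, 2.28 for Mgmt and 3.49 for Mki67.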

How the results depend on the processing

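Beside 0 genes called, the count was 2 without a filter on low counts (Tnni2, and B4galt5, named after its value was seen), 1 with the mitochondrial share as a covariate, 63 with all 16 libraries in one fit, 0 to 330 with 1 library left out, and 43 without control library 3 and NDEA libraries 3 and 4, an alternative chosen after seeing the data. The cause of these changes was not tested. The 1320 genes at an unadjusted p under 0.05 became 337 with the mitochondrial share, 2069 with all 16 libraries, 814 to 1835 with 1 library left out, and 408 without NDEA libraries 3 and 4, chosen likewise. The 259 tissue differences ranged from 121 to 547 with 1 library left out. Count-model tools were not run.

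With the replicate number as a block, 285 marrow genes were called (108 higher, 177 lower), 1452 lay at an unadjusted p under 0.05 and 238 tissue differences were called. The labels do not say whether libraries of the same number share a rat, cage or batch. Deviations of same-numbered marrow libraries correlated at 0.053, 0.046, 0.053 and 0.004, and NDEA library 2 correlated best with control library 1 (0.167). Such weak correlations cannot decide whether the numbers pair the libraries.

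With 1 library left out, list medians that moved by more than the spread between NDEA libraries ranged over -0.28 to 0.19 (stem and progenitor), -0.35 to 0.15 (mature neutrophil), -0.47 to -0.24 (stromal), -0.46 to 0.012 (endothelial), 0.14 to 0.45 (adipocyte), -2.68 to -2.00 (skeletal muscle), -0.048 to 0.15 (replication), -0.30 to -0.018 (mitosis), -0.21 to -0.035 (interferon), -0.39 to -0.11 (immediate early) and -0.52 to -0.26 (glycolysis). Without NDEA libraries 3 and 4 the medians that moved by more than that spread were 0.14 (stem and progenitor), 0.16 (mature neutrophil), -0.47 (stromal), 0.17 (endothelial), -2.21 (skeletal muscle), 0.13 (alkyl repair), -0.050 (mitosis), -0.033 (glycolysis), 0.20 (secretory stress) and -0.020 (sterol synthesis). Other medians changed by less than that spread, among them -0.37 (ribosomal protein, from -0.85), 0.12 (mitochondrially encoded, from 0.51), -0.18 (T and NK, from -0.82), 0.12 (osteoclast, from -0.31), -0.051 (primary granule, from -0.33) and -0.020 (eosinophil, basophil and mast, from -0.31). The spread takes in NDEA libraries 3 and 4 themselves, so a change smaller than it does not mean that these lists were unaffected by them. Depth limits low genes: below an average log2 CPM of 4 the median SE was 0.72.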
